A study of Saccharomyces cerevisiae with 6 samples.

Results

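Large subunit assembly factors are the proteins that build the large (60S) subunit of the cytosolic ribosome of Saccharomyces cerevisiae and leave before it translates. The 55 genes were chosen by name, from what their products are known to do, but with earlier results of these data known. All 55 of 55 were measured among the 5449 genes of the array, each by a probe set that the manufacturer does not mark as shared with other sequences. CQ cultures were 3 cultures of strain BY4742 held for 5 h in the rich medium YPD with 80 µM clioquinol (CQ), a small-molecule chelator of metal ions such as copper and zinc. They were set against 3 BY4742 cultures held for 5 h in YPD with 1% of the solvent dimethyl sulfoxide (DMSO). BY4742 is a haploid laboratory strain of mating type alpha with deletions at the marker loci HIS3, LEU2, LYS2 and URA3, which the cultures of both groups share. The labels call the samples of a group biological replicates and name no culture day or batch. Whether the CQ cultures also held DMSO is not in the labels, so CQ and a difference in solvent cannot be told apart.

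As background, ribosome assembly begins in the nucleolus, where RNA polymerase I makes a long precursor RNA that nucleases cut, while helicases, methyltransferases and scaffold proteins fold and modify it and ribosomal proteins join. The pre-large subunit then moves through the nucleoplasm, where GTPases and a large AAA-type ATPase remodel it, and export factors carry it through the nuclear pore. In the cytoplasm the last factors are stripped off and recycled. In growing yeast the genes for these factors are known to be expressed together with those of the small subunit, as a regulon that follows nutrient supply and stress.

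The measurements were Affymetrix probe set intensities on a linear scale, 1 array per culture. Median intensities over all genes were 976.9 to 1008 with CQ and 889.7 to 926.1 with DMSO. Every level is relative to the other transcripts of its array, so neither the number of cells nor the amount of RNA per cell can be read from it. The 3' to 5' index follows how intact the RNA was and is the mean log2 ratio of the 3' to the 5' probe sets of 6 yeast control genes. It was 1.30, 1.53 and 1.15 on the CQ arrays, against 0.96, 0.96 and 0.88 on the DMSO arrays. Its difference of 0.40 had p = 0.1 in an exact two-sided permutation test, the smallest that 3 against 3 arrays allow. Since the index did not overlap between the groups, a fit that holds it as a covariate can separate it from CQ only in part. Summed intensities of 4 alpha mating type markers were 7779 to 8481 with CQ and 17141 to 18197 with DMSO, all 4 lower with CQ, and those of 5 markers of mating type a were 1058 to 1243 with CQ and 792.3 to 806.9 with DMSO, with 4 of the 5 higher with CQ. None of these markers was at 0, and their part in the results was not tested. LEU2, LYS2 and URA3 lay between 7.38 and 58.6 and under the background level on all 6 arrays. HIS3 read 732.3 to 1120 with CQ and 1530 to 1703 with DMSO, but the HIS3 allele of this strain is known to lack only an internal stretch, so its reading checks nothing.

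Transcripts of the assembly factors fell with CQ almost throughout. A decrease was called for 48 of the 55, an increase for 2 (RRP8 and IPI1), and 5 did not pass (limma on log2(intensity + 16), Benjamini-Hochberg adjusted p under 0.05 over all 5449 genes). Over all genes tested 31.9% fell and 36.1% rose, 68% in either direction (1969 higher and 1739 lower, against 1578 higher and 2211 lower with arrays centred on their median). At least 2-fold decreases were found for 37 of the 55 (67.3%), against 7.51% of all genes. Their median difference, CQ minus DMSO, was -1.38 on the log2 scale, with quartiles of -1.79 and -0.75, while the median of all genes was 0.02. Of all 5449 genes ordered by their difference, the 544 lowest held 39 of the 55 and the 54 lowest held 8. Of the 55, 54 were above background on all 6 arrays. Differences below are CQ minus DMSO in log2(intensity + 16), with the standard error after ±, and values before them are linear intensities of replicates 1, 2 and 3.

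The decrease was seen on each CQ array. The mean log2 value of the 55 genes, taken relative to its DMSO mean, was -1.17, -1.33 and -1.37 on the 3 CQ arrays, against -0.10, 0.14 and -0.04 on the DMSO arrays. For 47 genes every CQ array lay below every DMSO array, which held for 35.1% of all genes, and for 3 every CQ array lay above (38.6% of all genes). DMSO replicate 2 was the brightest DMSO array for 50 of the 55 genes, and CQ replicate 1 the brightest CQ array for 37. Without DMSO replicate 2 the count was 45 lower and 1 higher, with a median of -1.31. With the index in the fit 43 were lower and 1 higher, with a median of -1.41. Without CQ replicate 2, which has the highest index, 49 were lower and 3 higher, with a median of -1.43.

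**Figure D1:**
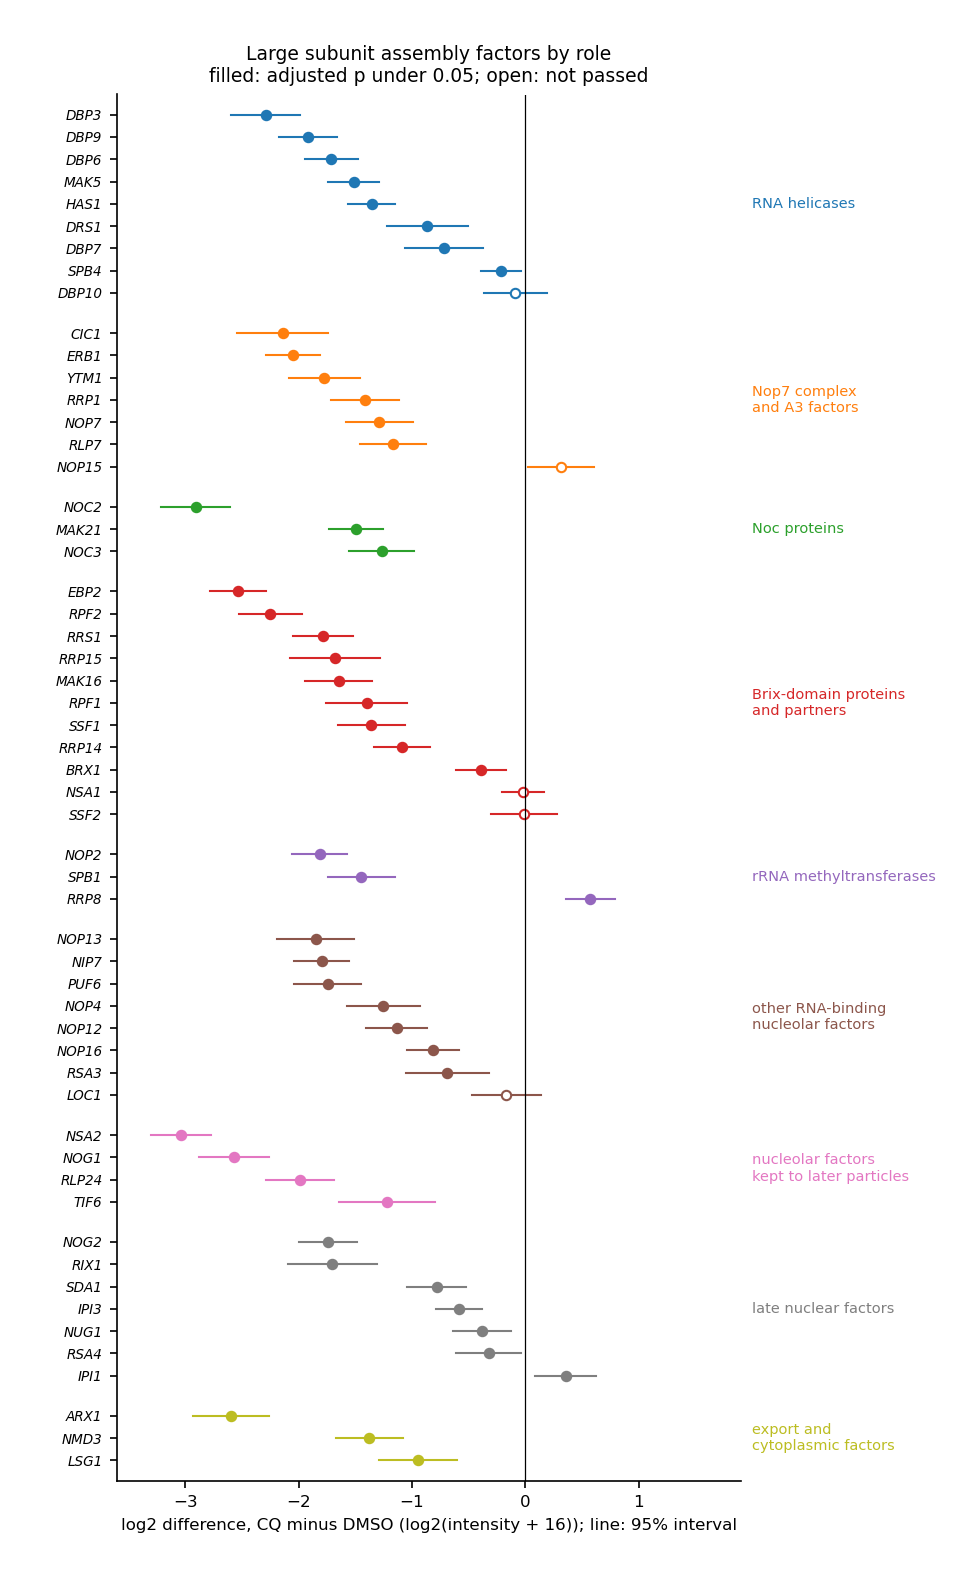
Log2 difference in intensity (CQ minus DMSO, x axis) for the 55 large subunit assembly factors, grouped by role, with 95% intervals from the limma fit. Filled points passed the adjusted threshold, open points did not; 48 points are filled and lie below 0, and RRP8 and IPI1 are filled and lie above 0.

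Among the DEAD-box RNA helicases of the nucleolus, enzymes that unwind and refold the precursor RNA, 8 of 9 fell and 1 did not pass, with a median of -1.36. DBP3 (YGL078C), whose product speeds cleavage in the spacer before the large subunit RNA, read 276, 215 and 276 with CQ, against 1214, 1521 and 1203 with DMSO. Its difference was -2.29 ± 0.13 (SE), and the groups were far apart. DBP9, DBP6, MAK5 and HAS1 followed at -1.92, -1.71, -1.51 and -1.36; Dbp6 and Dbp9 act in the earliest particles, and Has1 works on both subunits. DRS1 and DBP7 had smaller decreases of -0.86 and -0.72, and DRS1 was at -0.29 and no longer passed with the index in the fit. At the other end of the class SPB4, a late nucleolar helicase, was at -0.22 ± 0.08, a call that was lost when CQ replicate 1 or 3 or DMSO replicate 2 or 3 was left out, with an intensity trend in eBayes and with the index in the fit. DBP10 (YDL031W) did not pass: it read 456, 513 and 434 with CQ, against 497, 578 and 426 with DMSO, so that the groups overlapped, and its difference of -0.09 had a 95% interval of -0.37 to 0.19. With the index in the fit DBP10 was at -0.41, which also did not pass (limma adjusted p = 0.111); centring of the arrays on their median gave -0.22.

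The Nop7 complex and the scaffold and RNA-binding factors grouped with it are needed for processing of the precursor RNA. Of these 7 genes 6 fell, with a median of -1.42. CIC1 (YHR052W) encodes a protein that binds the internal spacer next to the large subunit RNA. It read 91.8, 109.7 and 63.3 with CQ, against 461, 481 and 373 with DMSO, a difference of -2.14 ± 0.17. The Nop7 complex fell in all 3 subunits, with ERB1 at -2.05, YTM1 at -1.77 and NOP7 at -1.29. RRP1 was at -1.42 and RLP7, a relative of ribosomal protein Rpl7 that binds the spacer, at -1.17. NOP15 (YNL110C), which encodes an RNA-binding protein of the same spacer, stood apart from them, reading 1185, 925 and 866 with CQ, against 850.3, 796 and 720.5 with DMSO. All of its CQ arrays were brighter than its DMSO arrays, but its difference of 0.31 ± 0.13 missed the threshold (limma adjusted p = 0.056). It passed without CQ replicate 2 (0.36) or CQ replicate 3 (0.40), but was 0.18 without CQ replicate 1 (limma adjusted p = 0.152) and 0.18 after quantile normalization or centring on the array median.

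All 3 Noc proteins, large scaffold proteins that work in pairs, fell. NOC2 (YOR206W), the partner common to both pairs, read 121, 83.4 and 93.7 with CQ, against 771, 938 and 819 with DMSO, and its difference of -2.90 ± 0.13 was the 4th lowest of the 5449 genes. NOC3 (YLR002C), its later partner, read 167, 119 and 131 with CQ, against 349, 389 and 328 with DMSO. The partner of the early particles, MAK21 (Noc1), was at -1.50 ± 0.10 and NOC3 at -1.27 ± 0.12, so the shared partner had the lower value in both pairs. No test of that order was made.

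The Brix-domain proteins, a family of precursor RNA-binding proteins, and their partners fell in 9 of 11 cases, with a median of -1.40. The lowest was EBP2 (YKL172W), reading 195, 167 and 163 with CQ, against 976, 1222 and 1082 with DMSO, a difference of -2.54 ± 0.11. Its protein partner gene BRX1 was at -0.39 ± 0.09 (-0.49 and no longer past the threshold with the index in the fit), so that the members of this pair lay 2.14 apart. RPF2 and RRS1, which together bring the 5S RNA particle to the subunit, were at -2.25 and -1.79. MAK16, RPF1 and RRP1 form a module with NSA1 (YGL111W), and they were at -1.65, -1.40 and -1.42. NSA1 itself read 721, 699 and 696 with CQ, against 672, 781 and 699 with DMSO, with overlapping groups and a difference of -0.02 (95% interval -0.21 to 0.17), which was -0.16 with arrays centred on their median. RRP15 was at -1.68 and RRP14 at -1.09.

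SSF1 (YHR066W) and SSF2 (YDR312W) are near-identical copies that encode interchangeable Brix-domain proteins, partners of Rrp14 and Rrp15. SSF1 read 48.0, 49.7 and 32.8 with CQ, against 123, 145 and 138 with DMSO, and its groups did not overlap. SSF2 read 124, 112 and 95.05 with CQ, against 92.3, 122 and 120.2 with DMSO, with overlapping groups. The difference was -1.36 ± 0.13 for SSF1 and -0.01 ± 0.12 for SSF2, whose 95% interval was -0.30 to 0.28 and which was at -0.15 with arrays centred on their median. The change of the SSF2 to SSF1 log ratio was 1.35, with SDs of 0.12 over the CQ and 0.10 over the DMSO arrays (n = 3 each), and no CQ array overlapped a DMSO array (exact two-sided permutation p = 0.1, the smallest possible). SSF1 was dim, with CQ replicate 3 under the background level of its array and a pseudocount of 64 giving -0.89, and probes of so similar a pair can take up transcripts of the other copy.

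Of the methyltransferases that modify the large subunit RNA, 2 fell and 1 rose. NOP2 (YNL061W), which methylates a cytosine and is essential for growth, read 639.7, 516 and 588 with CQ, against 1925, 2277 and 2045 with DMSO, a difference of -1.81 ± 0.10. NIP7, which encodes a small factor of the same early particles, had nearly the same difference, -1.80 ± 0.10. SPB1 was at -1.45 ± 0.13. RRP8 (YDR083W), which methylates an adenine, rose instead, reading 1371, 1184 and 1404 with CQ, against 945, 838 and 858 with DMSO. Its groups did not overlap, its difference was 0.57 ± 0.09 (limma adjusted p = 0.000847), and it was the highest of the 55.

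The other RNA-binding factors of the nucleolus fell in 7 of 8 cases, with a median of -1.19. NOP13 (YNL175C), a protein with RNA recognition motifs, read 144, 151 and 109 with CQ, against 444, 611 and 527 with DMSO, a difference of -1.85 ± 0.15. PUF6 was at -1.74, NOP4 at -1.25, NOP12 at -1.13 and NOP16 at -0.81. RSA3, a partner of the helicase Dbp6, was at -0.69. LOC1 (YFR001W), known with PUF6 both for ribosome assembly and for the localisation of ASH1 mRNA, did not pass: it read 1019, 1308 and 927 with CQ, against 1180.5, 1317 and 1139 with DMSO, with overlapping groups and a 95% interval of -0.47 to 0.13 around -0.17. It passed without CQ replicate 2 (-0.31) and with the index in the fit (-0.70), but was -0.07 without CQ replicate 3 and -0.11 without DMSO replicate 2, where it did not pass.

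All 4 factors that join in the nucleolus and stay on the particle to later stages fell, with a median of -2.28. NSA2 (YER126C) read 288, 316 and 239 with CQ, against 2217, 2605 and 2416 with DMSO, means of 281 ± 39.1 with CQ and 2413 ± 194 with DMSO (SD, n = 3 each). Its difference of -3.04 ± 0.11 was the 2nd lowest of all 5449 genes (limma adjusted p = 1.02e-06), and its CQ and DMSO arrays were far apart. NOG1, a GTPase, was at -2.57 ± 0.13, and RLP24, a placeholder for ribosomal protein Rpl24 that binds next to Nog1, at -1.99 ± 0.13. TIF6 (YPR016C), which keeps the subunits from joining until it is released in the cytoplasm, had the smallest decrease of the 4, reading 2186, 1285 and 2028 with CQ, against 4118, 4347 and 4074 with DMSO. CQ replicate 2 was the dimmest of its arrays, the difference was -1.22 ± 0.18, and with the index in the fit it was -0.54 and no longer passed.

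**Figure D2:**
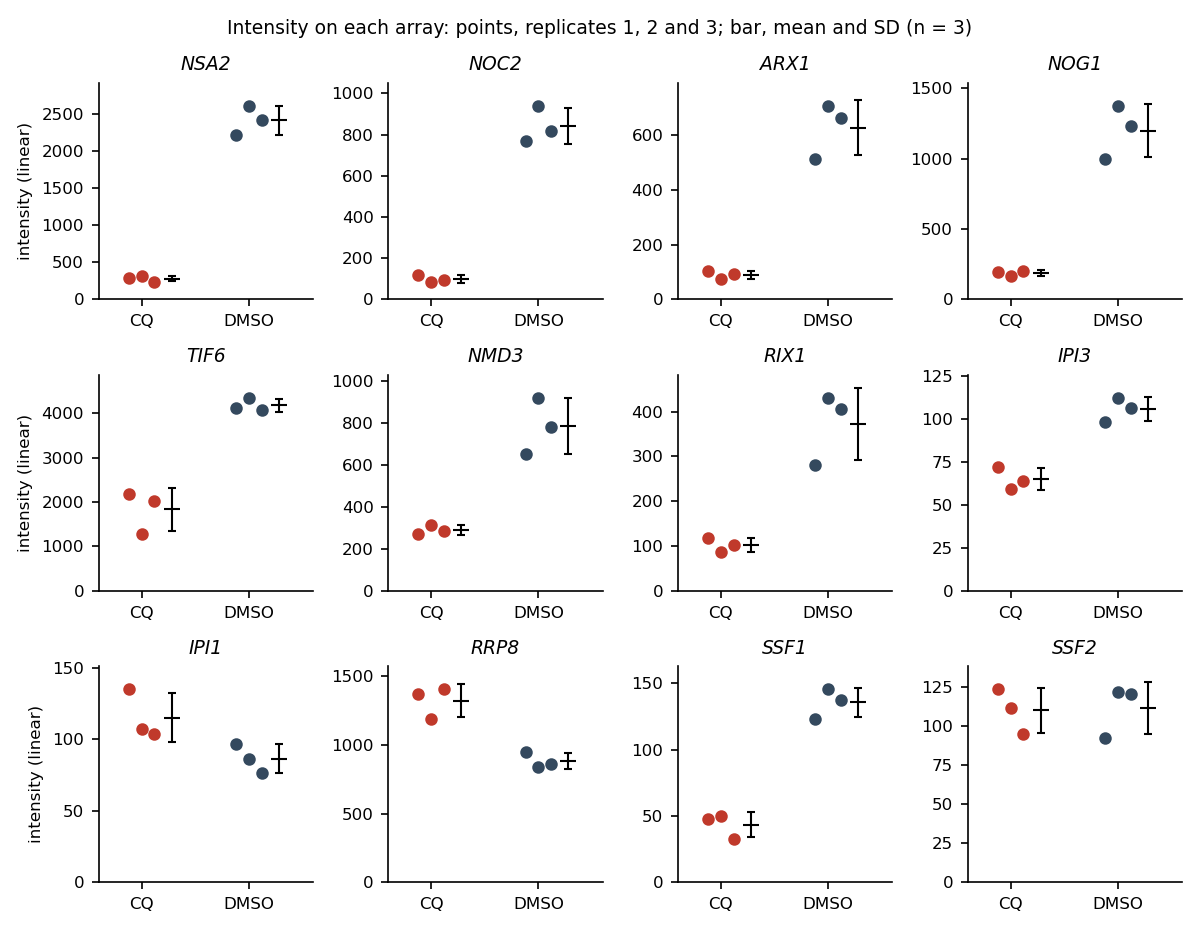
Linear intensity on each of the 6 arrays (y axis) for 12 genes, CQ left and DMSO right; the bar beside the points is the mean with its SD (n = 3). NSA2, NOC2, ARX1 and NOG1 lie far lower with CQ, IPI1 and RRP8 lie higher with CQ, and the groups of SSF2 overlap while those of SSF1 do not.

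Of the 7 late nuclear factors 6 fell and 1 rose, with a median of -0.59. NOG2 (YNR053C), a GTPase that holds the place of the export adaptor Nmd3, read 321, 275 and 337 with CQ, against 1011, 1217 and 1001 with DMSO, a difference of -1.74 ± 0.11. NUG1 (YER006W), another GTPase, read 1105, 924 and 1012 with CQ, against 1193, 1516 and 1287 with DMSO, and its difference of -0.39 ± 0.11 no longer passed without DMSO replicate 2 (-0.29) or with the index in the fit (-0.25). RSA4 (YCR072C), through which the remodelling ATPase Rea1 pulls on the particle, read 162, 220.5 and 161 with CQ, against 221, 246 and 219.7 with DMSO. CQ replicate 2 lay at the level of DMSO replicate 3, its difference was -0.32 ± 0.12, and the call was lost when any array other than CQ replicate 2 was left out, after quantile normalization (-0.28), with a pseudocount of 64 and with an intensity trend in eBayes, while the fit with the index gave -0.78. SDA1 (YGR245C), needed for the particle to leave the nucleus, read 281, 296 and 354 with CQ, against 612, 518 and 505 with DMSO, a difference of -0.78 ± 0.11.

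The Rix1 complex, which docks on the particle with Rea1, split. RIX1 (YHR197W) read 119, 86.8 and 102 with CQ, against 280.5, 431 and 407 with DMSO, a difference of -1.70 ± 0.17. IPI3 (YNL182C) read 72.3, 59.4 and 63.9 with CQ, against 98.5, 113 and 106 with DMSO, a smaller decrease of -0.59 ± 0.09. IPI1 (YHR085W) went the other way, reading 135, 107 and 104 with CQ, against 96.8, 85.9 and 76.5 with DMSO, a difference of 0.35 ± 0.12, so the subunits of the complex spanned 2.06 on the log2 scale. The call for IPI1 was lost without CQ replicate 1 or DMSO replicate 2 or 3, with arrays centred on their median (0.22) and with the index in the fit. IPI1 and IPI3 were dim but above the background level of each of the 6 arrays, which was 41.8 to 59.8.

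All 3 export and cytoplasmic factors fell, with a median of -1.38. ARX1 (YDR101C), an export factor that covers the exit of the peptide tunnel, read 105, 74.8 and 91.4 with CQ, against 514, 706 and 662 with DMSO. Its difference of -2.59 ± 0.15 was the lowest of the late factors and the 25th lowest of all genes. NMD3 (YHR170W), the adaptor that links the subunit to the exportin Crm1, read 271, 315 and 285 with CQ, against 654, 921 and 781 with DMSO, a difference of -1.38 ± 0.13. LSG1 (YGL099W), the cytoplasmic GTPase that releases Nmd3, read 283, 187 and 255 with CQ, against 473, 523 and 428 with DMSO, at -0.95 ± 0.15 and at -0.55, no longer past the threshold, with the index in the fit. The 4 GTPases NOG1, NOG2, NUG1 and LSG1 thus differed widely among themselves, over a span of 2.18.

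Nucleolar and late factors were then set side by side. Of the 10 late nuclear and export factors 9 fell and 1 rose, with a median of -0.86, and of the 45 nucleolar factors 39 fell and 1 rose, with a median of -1.42. The late factors held 4 genes at least 2-fold lower (40.0%) and the nucleolar factors 33 (73.3%). Within the late factors the median was -0.59 for the 7 late nuclear and -1.38 for the 3 export and cytoplasmic factors. The late factors averaged -0.93, -1.10 and -0.997 on the CQ arrays, against -0.09, 0.13 and -0.03 on the DMSO arrays, all relative to their DMSO mean. The nucleolar factors averaged -1.23, -1.39 and -1.45 on the CQ arrays, against -0.10, 0.15 and -0.05 on the DMSO arrays. Neither stage overlapped between CQ and DMSO. The mean of the late minus the mean of the nucleolar genes was taken relative to its DMSO mean. It was 0.30, 0.29 and 0.45 on the CQ arrays, against 0.01, -0.02 and 0.01 on the DMSO arrays. The late mean thus fell less than the nucleolar mean on each CQ array. This difference rested on where NOG1, RLP24, NSA2 and TIF6 are counted, as they bind in the nucleolus and travel on. With these 4 among the late factors (14 against 41) the values were -0.11, -0.17 and 0.04 on the CQ arrays. On the DMSO arrays they were 0.01, -0.02 and 0.01, and the groups overlapped. The medians were then -1.30 for the late and -1.40 for the nucleolar factors, so the late median was still higher, by 0.10. No p is given for scores over these genes, because they were chosen with results of these data known.

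**Figure D3:**
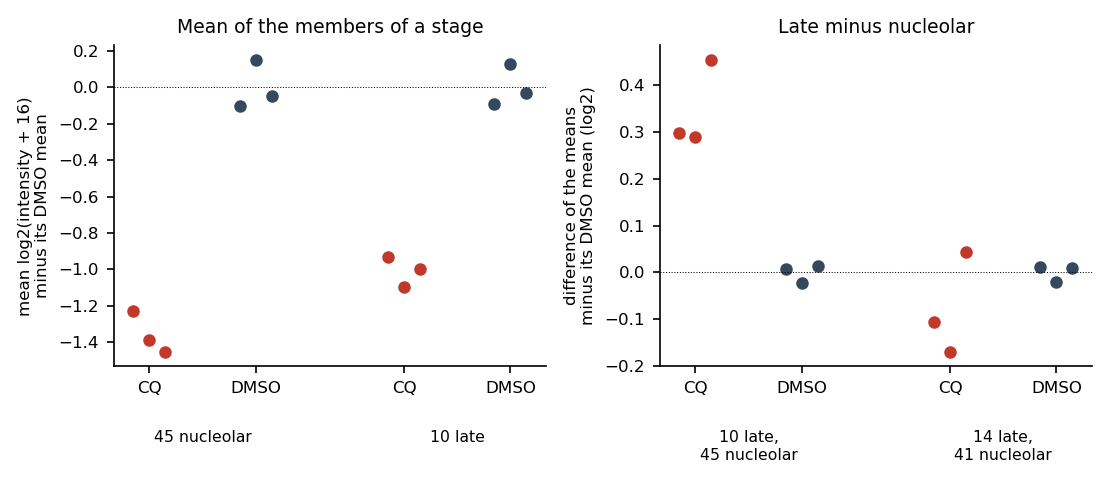
Left, mean log2(intensity + 16) of the 45 nucleolar and 10 late factors on each array, relative to the DMSO mean; right, late minus nucleolar mean in the same way, with NOG1, RLP24, NSA2 and TIF6 counted as nucleolar or as late. Points are arrays, CQ left of DMSO; the late minus nucleolar value lies above DMSO on every CQ array for the 10 and 45 genes (0.29 to 0.45) and overlaps it for the 14 and 41 genes.

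Other genes, from a list made for the large subunit outside the 55, had a median of -0.59: 23 of 35 fell, 5 rose and 7 did not pass. The list also holds factors with wider roles in RNA export and processing. It includes NOP6, known as a factor of the small subunit, which is counted among those that rose (0.43 ± 0.13). The lowest was RRB1, which encodes a chaperone of ribosomal protein Rpl3 (-2.53 ± 0.12). The highest was REA1 (MDN1), the remodelling ATPase that acts on Ytm1 and Rsa4, which read 2336, 3027 and 2255 with CQ, against 787, 768 and 783 with DMSO, and rose by 1.67 ± 0.12. Its substrates' genes YTM1 and RSA4, as given above, were lower with CQ. Of the 76 genes taken by symbol as ribosomal proteins of the large subunit 61 fell and 0 rose, with a median of -0.56. At least 2-fold decreases were found for 9 of them (11.8%), against 7.51% of all genes. The difference between these lists and the 55 genes was not tested.

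Genes of the small subunit processome, the matching machinery of the other subunit, had a median of -1.25, and 40 of 51 fell, 2 rose and 9 missed the threshold. They ran from BFR2 at -2.89 ± 0.16 to UTP23 at 1.41 ± 0.09. Of 15 genes of RNA polymerase I and its factors 12 fell and 1 rose, with a median of -0.69. The subunit gene RPA49 was at -1.72 ± 0.10. RRN3 (YKL125W), which encodes the factor that makes the polymerase competent to start, rose and read 1187, 1044 and 1219 with CQ, against 286, 237 and 233 with DMSO, a difference of 2.12 ± 0.10.

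**Figure D4:**
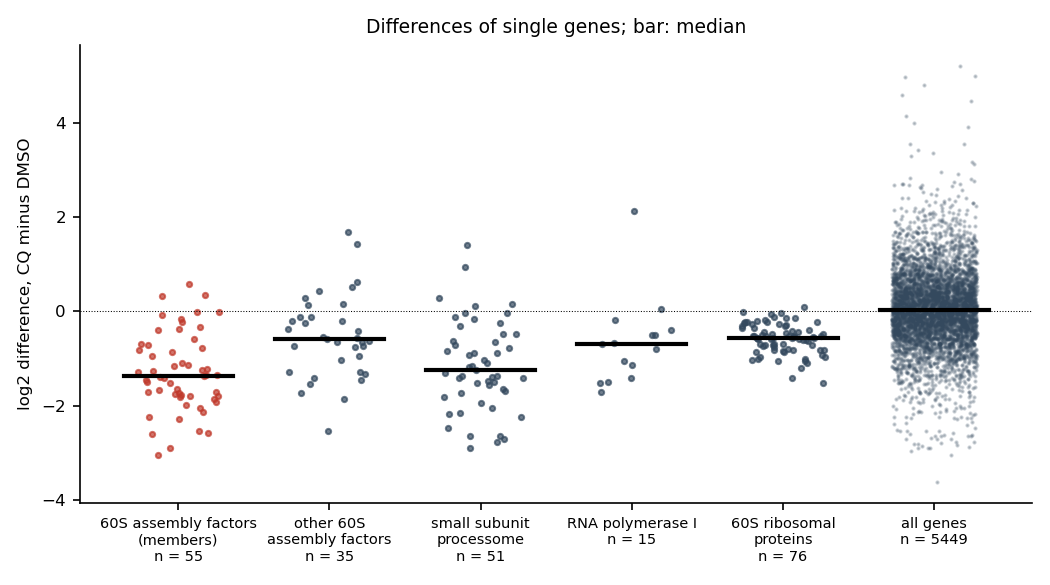
Log2 difference (CQ minus DMSO, y axis) of single genes for the 55 assembly factors, 35 other genes listed for the large subunit, 51 small subunit processome genes, 15 RNA polymerase I genes, 76 genes with symbols of large subunit ribosomal proteins and all 5449 genes. Bars are medians. The medians are -1.38, -0.59, -1.25, -0.69, -0.56 and 0.02 in that order.

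Most genes of known regulators of ribosome synthesis did not pass the test. Of 16 measured regulators 2 fell, 4 rose and 10 did not pass, with a median of 0.10, where 31.9% of all genes fell and 36.1% rose. TOR2 and KOG1, for subunits of TOR kinase complexes, rose by 1.44 ± 0.08 and 1.35 ± 0.12. TOR1 was at 0.75 ± 0.11 (0.31 and no longer past the threshold with the index in the fit). CRF1, a corepressor of ribosomal protein genes, rose by 0.66 ± 0.09. TOD6 (YBL054W), a repressor that binds a promoter element of assembly genes, read 783, 541 and 582 with CQ, against 949, 1053 and 1003 with DMSO, and was at -0.66 ± 0.13; it did not pass with the index in the fit (-0.50). RAP1, an activator of ribosomal protein genes, was at -0.20 ± 0.07 and lost its call when any array other than CQ replicate 2 or 3 was left out, with an intensity trend in eBayes and with the index in the fit. SFP1 and STB3, an activator and a repressor of assembly genes, did not pass, at 0.16 and 0.20. DOT6, a close relative of TOD6 that binds the same element, did not pass either, at 0.18 ± 0.09 with overlapping groups.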

How the data were processed

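Total RNA of 6 cultures was hybridised to Affymetrix arrays as biotin-labelled cRNA, per the labels' protocols. The deposited values are 1 linear intensity per probe set and array made by the authors; the summary algorithm, any scaling between arrays and the scanner software were not given in the sources used here. Of 10928 probe sets 5498 were paired with 1 S. cerevisiae gene by the platform annotation and the RefSeq gene table, and the probe set with the highest mean log2(intensity + 16) stood for each of the 5449 genes. The background level of an array was the 95th percentile of 1746 probe sets for the fission yeast Schizosaccharomyces pombe. CQ and DMSO were compared in R 4.3.3 by two-sided moderated tests of limma 3.58.1 (lmFit, eBayes) over all genes and without a filter on dim ones, with Benjamini-Hochberg adjustment and a threshold of 0.05; the fit was checked on simulated arrays. Values after ± are standard errors of this fit. Single values were tested by exact permutation with scipy 1.17.1, and plots were drawn with matplotlib 3.10.9.

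Every one of the 55 genes is named; intensities on each array are given for the lowest and highest difference in each role, all late factors, SSF1 and SSF2, and all that rose or did not pass. Ribosomal protein genes were taken by symbol, a rule that RPP1 of the enzyme RNase P also meets, and none is named. Of the other lists the genes with the largest increase and decrease past the threshold and each regulator past it are named. SFP1, STB3, DOT6, NOP6, LCP5 and RRP3 are named outside it, picked once their values were known. The members, their roles and all lists were chosen with earlier results of these data known. Promoter sequences were not used here, so a planned count of promoter motifs was not made. Alternatives were quantile or median centring, other pseudocounts, a background filter, other probe set choices, trend and robust eBayes, a replicate block, leaving out arrays and a fit with the 3' to 5' index. Chromosome positions are not printed, as the array annotation names no build.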

Additional observations from a re-analysis of the deposited data

Results flagged for a closer look

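The array also carries control probe sets for ribosomal RNA, which no comparison above uses, and their values for the RNA of the large subunit were above those of the DMSO arrays at some positions. The probe set for the middle of the 25S RNA read 5772, 4961 and 5344 with CQ, against 4075, 3375 and 3661 with DMSO, a log2 difference of 0.53. The probe set for its 3' end read 8704, 9286 and 8081 with CQ, against 8025, 6932 and 7398 with DMSO, a difference of 0.22. The groups did not overlap in either case, and the exact two-sided permutation p was 0.1 (0.117 adjusted over the 7 rRNA probe sets). At the 5' end of the same RNA the difference was -0.10, without overlap, and for the 5.8S RNA it was -0.08, with overlap (exact p = 0.7). Differences at the 5' end, middle and 3' end of the 18S RNA of the small subunit were -0.40, -0.56 and -0.90. Each of these was also without overlap, with the same exact two-sided permutation p of 0.1 (0.117 adjusted). The labels do not say how much rRNA the labelled material held, so these values are no measure of ribosome content.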

How the results depend on the processing

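Counts of lower assembly factors stayed within 43 to 49 of 55 under every alternative listed in the methods, and counts over all genes stayed within 1.5 times of 1969 higher and 1739 lower. With arrays centred on their median the median of all genes moved to -0.11, 1 assembly factor was higher in place of 2, and the medians were -1.51 for the 55, -1.55 for the nucleolar and -0.999 for the late factors. With a pseudocount of 1 the nucleolar median was -1.56 and the late minus nucleolar difference of medians 0.66, against 0.55 as reported. With a pseudocount of 64 the median of the 55 was -1.20, that of the nucleolar factors -1.22 and the difference 0.45. With the 3' to 5' index in the fit 1 was higher, the nucleolar and late medians were -1.60 and -0.70 and the difference 0.90. Counting NOG1, RLP24, NSA2 and TIF6 with the late factors gave a late median of -1.30 and a difference of 0.10. Leaving out each array in turn gave 45 to 49 lower, 1 to 3 higher, a median of -1.50 to -1.31, a nucleolar median of -1.54 to -1.32, a late median of -0.93 to -0.77 and a difference of 0.41 to 0.71. Values near 0 changed sign: SSF2 was at 0.050 after quantile normalization and -0.12 to 0.077 without single arrays, DBP10 at -0.19 to 0.018 and NSA1 at -0.066 to 0.040. After the data were seen, CQ replicate 2 was left out together with centring, which gave 50 lower and a median of -1.58.

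Fitting the replicate number as a block gave 47 lower and 3 higher: SPB4 (-0.22) lost its call and NOP15 (0.31) gained one, and among the regulators RAP1 lost its call. Deviations of same-numbered arrays from their group means correlated at 0.055, 0.12 and 0.14 over genes, so the numbers were not taken as pairs; each CQ array correlated best with the DMSO array of its own number, a hint from the data and not from the design. The precision is limited by 3 arrays per group, and only SSF1 among the 55 came under background, on 1 array.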

Other observations

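Gene order gave a contrast between an assembly factor and its neighbour. By the order of protein-coding genes in the RefSeq annotation (assembly R64), NSA2 lies back to back with LCP5 (YER127W), a small subunit processome gene. The distance between back-to-back genes was not measured. NSA2 was at -3.04 and LCP5 rose by 0.94 ± 0.11, reading 149.7, 116 and 137 with CQ, against 69.4, 60.1 and 56.5 with DMSO. SSF1 lies back to back with the helicase gene RRP3 of the small subunit, and here both fell, at -1.36 and -1.93. Both pairs were chosen after their values were seen.

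Of the 55 assembly factors 24 had a measured upstream neighbour that is transcribed in the opposite direction. Whether such pairs share an upstream region was not tested. Among these neighbours 8 fell, 6 rose and 10 did not pass, with a median of -0.05, against 31.9% lower and 36.1% higher over all genes.

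Across the 55 genes the Spearman correlation of the difference with the mean level over the 6 arrays was 0.079, against -0.041 over all 5449 genes. With the DMSO level, which is also part of the difference, it was -0.32, against -0.27 over all genes. Genes are not independent replicates, and no p is given.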
